A study of Mus musculus with 15 samples.

Results

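The genes described here are the 7 mouse genes H2-Aa, H2-Ab1, H2-Eb1, H2-DMa, H2-DMb1, Cd74 and Ciita, which serve presentation of antigen on major histocompatibility complex (MHC) class II. They were picked by symbol from the 33321 genes of the deposited count table. All 7 had enough counts to be among the 16795 genes tested. RNA of the mouse corpus callosum, the large myelinated tract between the hemispheres, had been sequenced in 5 groups of 3 libraries. LNIO-Ipsil was the site injected with L-NIO, an inhibitor of nitric oxide synthase used to make a focal white matter stroke. LPC-Ipsil was the site injected with lysophosphatidylcholine (LPC), a lipid that strips myelin. LNIO-Contra and LPC-Contra were the opposite sides of the same kinds of operation, and Sham-Ipsil was the site injected with saline in sham-operated mice. Tissue of the injected and opposite sides was collected on day 4, and the labels give sham tissue no day of its own. Strain, age and sex were not stated in the sources used here, and the labels name no transgene. Whether each library is a different mouse is not stated either, so p-values measure the spread between these libraries, which may be technical.

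Class II molecules are pairs of an alpha and a beta chain that carry peptides from the endosomal route to the cell surface, where CD4 T cells read them. The invariant chain, encoded by Cd74, fills the groove of new class II molecules and steers them to endosomes. There proteases cut it down to a short stub, and the H2-DM heterodimer exchanges that stub for a peptide. Ciita encodes the coactivator that assembles on factors already bound at class II promoters and is the main switch of the whole set. In healthy white matter class II is scarce, and microglia, macrophages at the borders of the brain, dendritic cells and B cells are the usual carriers.

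Library totals ran from 14896445 to 20916606 counts. Summed oligodendrocyte markers lay between 14850 and 29090 CPM, the counts scaled to library size, in every library. LPC-Ipsil replicate 3 stood apart from its group. Homeostatic microglial markers summed to 648 to 912 CPM in LNIO-Ipsil, 471 to 2332 CPM in LPC-Ipsil and 336 to 393 CPM in Sham-Ipsil libraries, and the 471 CPM was that of LPC-Ipsil replicate 3. Fold changes of the 7 genes between LPC-Ipsil and Sham-Ipsil or LPC-Contra, and counts of the lists, are therefore given with and without it. Since these markers singled it out, a stronger rise of microglial genes without it is partly fixed by that choice. It was also the lowest LPC-Ipsil library for Cd74, H2-Aa, H2-Eb1, H2-DMa and H2-DMb1. A stronger rise of these genes without it, and any pass there, is therefore partly fixed as well. In bulk tissue, fewer cells of a type and less RNA per cell cannot be told apart.

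By mean level per length of gene, H2-DMa led in sham tissue and Cd74 led at both injection sites, though not in every library. In CPM, which does not divide by length, H2-DMa averaged 10.75 and Cd74 7.68 in LNIO-Ipsil. In LPC-Ipsil those means were 14.45 and 13.91 CPM. In the authors' FPKM, which divides counts by gene length and library size, Cd74 averaged 4.31 ± 4.80 in LNIO-Ipsil, 7.70 ± 7.55 in LPC-Ipsil and 1.05 ± 0.25 in Sham-Ipsil (SD, n = 3 each). H2-DMa averaged 2.94 ± 0.68 FPKM in LNIO-Ipsil, 3.92 ± 2.12 FPKM in LPC-Ipsil and 3.24 ± 0.08 FPKM in Sham-Ipsil. The lengths implied by counts and FPKM were 3651 to 3736 bases for H2-DMa and 1778 to 1819 bases for Cd74. The order of these genes at the injection sites depends on those lengths, since in CPM the mean of H2-DMa was the higher. Shares and ratios of FPKM between genes rest on such lengths too. In single libraries Cd74 was above H2-DMa only in replicate 2 of LNIO-Ipsil, at 9.84 against 3.05 FPKM, and in replicates 1 and 2 of LPC-Ipsil. LPC-Ipsil replicate 3 held 1.17 FPKM of Cd74, below its 2.10 FPKM of H2-DMa and 2.78 FPKM of H2-Ab1. The mean of H2-Ab1 was 1.45 ± 1.15 FPKM in LNIO-Ipsil, 2.83 ± 0.51 FPKM in LPC-Ipsil and 0.597 ± 0.435 FPKM in Sham-Ipsil. H2-Aa, H2-Eb1, H2-DMb1 and Ciita each averaged below 1 FPKM in every group. Of the summed FPKM of the 7 genes, H2-DMa made up 16.8% to 39.7% in LNIO-Ipsil libraries, 21.2% to 31.0% in LPC-Ipsil libraries and 51.4% to 56.7% in Sham-Ipsil libraries. Both injection sites lay below sham in all their libraries, LPC-Ipsil replicate 3 included. In the contralateral libraries the share was 47.2% to 74.2% in LNIO-Contra and 43.7% to 54.4% in LPC-Contra.

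**Figure D1:**
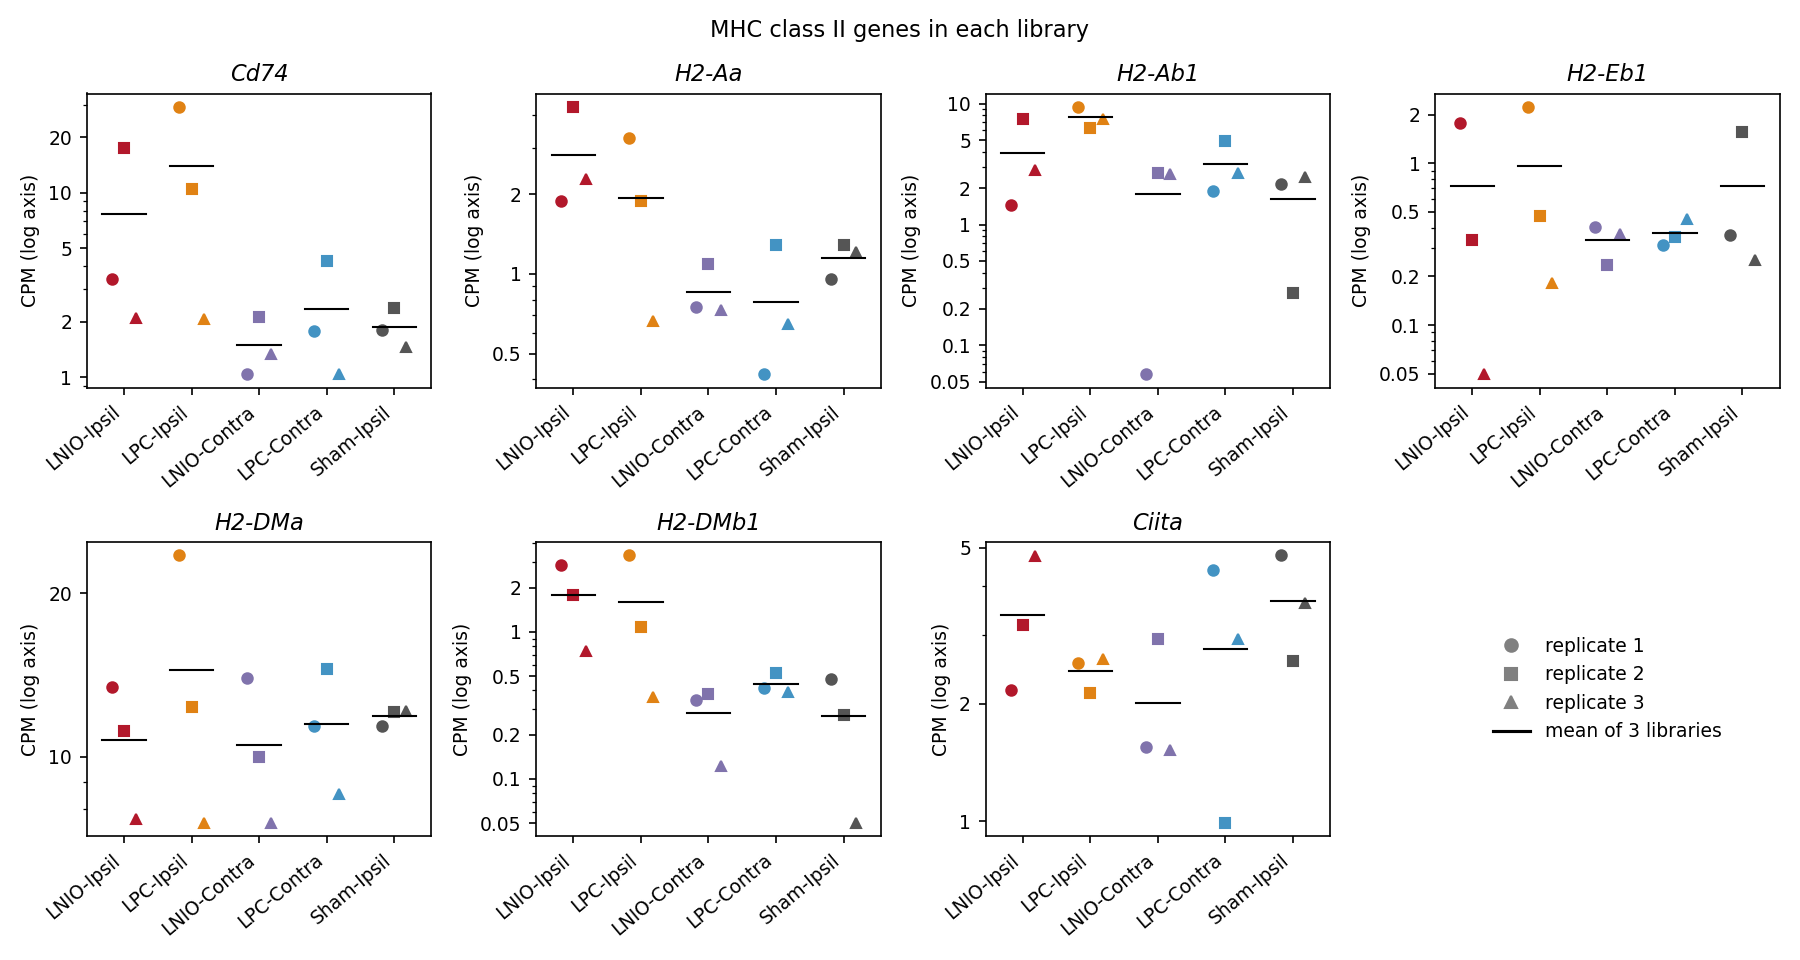
CPM (vertical, log axis) of the 7 genes in each library, by group, with replicate number as marker shape and the mean of 3 libraries as a bar. Cd74 reaches 29.2 CPM in LPC-Ipsil and 17.6 CPM in LNIO-Ipsil, and H2-DMb1 in all LNIO-Ipsil libraries lies above every contralateral and sham library.

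Cd74, the invariant chain, had the highest single values of the 7 genes. In LNIO-Ipsil it held 3.39, 17.6 and 2.08 CPM, and in LPC-Ipsil 29.2, 10.5 and 2.06 CPM (replicates 1, 2 and 3). Sham-Ipsil held 1.79, 2.37 and 1.46 CPM, LNIO-Contra 1.04, 2.13 and 1.34 CPM, and LPC-Contra 1.77, 4.26 and 1.04 CPM. One library of LNIO-Ipsil and 2 of LPC-Ipsil were far above all others, and replicate 3 of both groups fell within the sham range. The log2 fold change was 2.04 ± 0.93 (SE) for LNIO-Ipsil over Sham-Ipsil (edgeR adjusted p = 0.558) and 2.90 ± 0.94 for LPC-Ipsil over Sham-Ipsil (adjusted p = 0.0982). Neither passed the threshold of 0.05. Without LPC-Ipsil replicate 3 the LPC value was 3.41 ± 0.83 and passed (edgeR adjusted p = 0.0228), as it did at 2.90 without LNIO-Ipsil replicate 2, a library outside the comparison (adjusted p = 0.0488). LPC-Ipsil replicate 3 held the least Cd74 of its group, so the pass without it partly follows from leaving it out. DESeq2 on all libraries called Cd74 too, at 2.88 (adjusted p = 0.026). Without LPC-Ipsil replicate 1 the LPC value was 1.76, and without LNIO-Ipsil replicate 2 the LNIO value was 0.57, neither passing (edgeR adjusted p = 0.496 and 0.906).

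Each injection site held more Cd74 than the side opposite with the same number. The ratio was 3.28, 8.26 and 1.55 in LNIO and 16.5, 2.46 and 1.98 in LPC. With all 15 libraries the log2 side difference was 2.33 ± 0.94 for LNIO-Ipsil over LNIO-Contra (edgeR adjusted p = 0.698) and 2.55 ± 0.92 for LPC-Ipsil over LPC-Contra (adjusted p = 0.237). The LNIO side difference was 0.87 without LNIO-Ipsil replicate 2. The LPC one was 1.42 without LPC-Ipsil replicate 1 and 3.06 ± 0.81 without LPC-Ipsil replicate 3 (edgeR adjusted p = 0.0508 in the last). Same-numbered LNIO libraries of the 2 sides deviated from their group means together, whereas the LPC ones did not in every pair. With that pairing as a block, in the 6 LNIO libraries alone, Cd74 rose by 1.99 ± 0.42 on the log2 scale (edgeR adjusted p = 0.0331). The labels state no such pairing, which was read from these same data.

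H2-Aa and H2-Ab1 encode the alpha and beta chains of the H2-A molecule. The mean of H2-Aa was highest in LNIO-Ipsil and that of H2-Ab1 in LPC-Ipsil. H2-Aa held 1.89, 4.28 and 2.28 CPM in LNIO-Ipsil, 3.26, 1.89 and 0.665 CPM in LPC-Ipsil, and 0.956, 1.28 and 1.21 CPM in Sham-Ipsil. It held 0.748, 1.09 and 0.731 CPM in LNIO-Contra and 0.417, 1.28 and 0.648 CPM in LPC-Contra. All LNIO-Ipsil libraries lay above all contralateral and sham libraries, while LPC-Ipsil replicate 3 lay below the lowest sham library. In LNIO-Ipsil the log2 difference was 1.29 ± 0.51 over Sham-Ipsil (edgeR adjusted p = 0.46) and 1.70 ± 0.52 over LNIO-Contra (adjusted p = 0.365). With LNIO sides paired, the side difference was 1.68 ± 0.33 and passed (edgeR adjusted p = 0.00495), being 2.53, 3.94 and 3.12 times the opposite side in the 3 pairs. In LPC-Ipsil it was 0.75 ± 0.51 over Sham-Ipsil (edgeR adjusted p = 0.452) and 1.30 ± 0.53 over LPC-Contra (adjusted p = 0.307). Over Sham-Ipsil the LPC value was 0.17 without LPC-Ipsil replicate 1 and 1.15 ± 0.46 without LPC-Ipsil replicate 3 (edgeR adjusted p = 0.143 in the last). Without LPC-Ipsil replicate 3 the LPC side difference of H2-Aa was 1.71 ± 0.47 and passed (edgeR adjusted p = 0.0483).

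H2-Ab1 held 1.45, 7.45 and 2.83 CPM in LNIO-Ipsil, 9.41, 6.33 and 7.43 CPM in LPC-Ipsil, and 2.15, 0.27 and 2.46 CPM in Sham-Ipsil. LNIO-Contra held 0.0575, 2.65 and 2.62 CPM, and LPC-Contra 1.88, 4.96 and 2.66 CPM. The 3 LPC-Ipsil libraries lay above every sham and contralateral library, and H2-Ab1 was the only one of the 7 genes at which LPC-Ipsil replicate 3 exceeded the whole sham range. Its log2 fold change over Sham-Ipsil was 1.23 ± 0.85 in LNIO-Ipsil (edgeR adjusted p = 0.759) and 2.21 ± 0.85 in LPC-Ipsil (adjusted p = 0.161). The side differences were 1.13 ± 0.84 in LNIO and 1.29 ± 0.81 in LPC (edgeR adjusted p = 1 and 0.61). Almost no H2-Ab1 was counted in a pair of libraries, LNIO-Contra replicate 1 with 1 count and Sham-Ipsil replicate 2 with 4 counts, and these lows enter each of its comparisons with those groups. Without LNIO-Ipsil replicate 2 the LNIO values were 0.39 over Sham-Ipsil and 0.28 between sides. The LPC values without LPC-Ipsil replicate 3 were 2.24 ± 0.96 over Sham-Ipsil and 1.31 ± 0.93 between sides (edgeR adjusted p = 0.187 and 0.627).

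H2-Eb1 encodes the beta chain of the second class II molecule, H2-E. It had 32, 6 and 1 counts in LNIO-Ipsil, 37, 10 and 3 in LPC-Ipsil and 6, 23 and 5 in Sham-Ipsil. In CPM these were 1.78, 0.334 and 0.0496 in LNIO-Ipsil, 2.23, 0.472 and 0.181 in LPC-Ipsil, and 0.359, 1.55 and 0.251 in Sham-Ipsil. The contralateral libraries ran from 0.236 to 0.403 CPM in LNIO-Contra and from 0.313 to 0.454 CPM in LPC-Contra. One library in each of the injected and sham groups stood far above the rest of its group. The log2 fold change over Sham-Ipsil was 0.03 ± 0.97 in LNIO-Ipsil and 0.44 ± 0.96 in LPC-Ipsil (edgeR adjusted p = 0.997 and 0.856). Its direction hung on single libraries, being -1.86 for LNIO-Ipsil without its replicate 1 and -1.05 for LPC-Ipsil without its replicate 1. The LPC value without LPC-Ipsil replicate 3 was 0.92 ± 0.97 over Sham-Ipsil and 1.83 ± 1.01 over LPC-Contra (edgeR adjusted p = 0.645 and 0.47).

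The promoter letters of the classical and H2-DM genes are shown because Ciita acts through them. The X box is bound by the RFX complex and the Y box by NF-Y, and class II promoters are known for carrying both at a fixed spacing. The RefSeq promoters searched were of build GRCm38.p6, not the build of the counts. They included 4 of the 7 genes, H2-Aa, H2-Eb1, H2-DMa and H2-DMb1. Part of the RefSeq set was left out of the search, so whether it lists the other genes was not tested. Searched on both strands in the 250 bases before the start, the X box letters were GNAAC followed at once by NNATG and the Y box letters ATTGG, which do not overlap one another. These letters were chosen with class II sequences in view. The 150 bases before the start are given 5′ to 3′ on the gene's own strand, for H2-Aa at chr17:34287824-34287973 (minus strand), for H2-Eb1 at chr17:34305717-34305866 (plus) and for H2-DMb1 at chr17:34153041-34153190 (plus). Capitals mark the X box letters, and the Y box letters or, in H2-Eb1 near the start, their reverse complement.
H2-Aa: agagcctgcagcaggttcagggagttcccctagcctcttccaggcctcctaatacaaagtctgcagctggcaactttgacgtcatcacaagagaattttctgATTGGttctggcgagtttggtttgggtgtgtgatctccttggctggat
H2-Eb1: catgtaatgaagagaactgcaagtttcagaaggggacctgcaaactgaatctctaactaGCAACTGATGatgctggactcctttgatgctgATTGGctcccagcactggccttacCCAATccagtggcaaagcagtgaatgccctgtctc
H2-DMb1: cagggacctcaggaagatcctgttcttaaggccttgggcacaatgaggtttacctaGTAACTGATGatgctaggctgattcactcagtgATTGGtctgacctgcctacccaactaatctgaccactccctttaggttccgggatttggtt
The X box letters occurred in 2.1% and the Y box letters in 33.8% of 32851 windows of that length. An X box followed by a Y box within 40 bases occurred in 24 windows, or 0.0731%. Among them were H2-Eb1, with 22 bases between, and H2-DMb1, with 23, together with H2-Ob (20) and H2-Eb2 (22). H2-Aa had only the Y box letters, 48 bases before the start. H2-DMa had neither in its first listed window, and only the Y box letters in a later one. In the H2-Aa sequence gcaac does occur before the Y box letters, but tttga rather than NNATG follows it. The search was for exact letters, so no match does not show that an X box is absent. H2-DMb1 and H2-Eb1 thus held the same letters at nearly the same spacing. In LNIO-Ipsil, H2-DMb1 lay above every contralateral and sham library, and H2-Eb1, at 32, 6 and 1 counts, overlapped them. Whether these letters bear on the level of either gene was not tested.

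H2-DMa and H2-DMb1 encode the alpha and beta chains of H2-DM, the peptide exchanger. H2-DMb1 held 2.84, 1.78 and 0.743 CPM in LNIO-Ipsil, 3.32, 1.09 and 0.363 CPM in LPC-Ipsil, and 0.478, 0.27 and 0.0503 CPM in Sham-Ipsil. LNIO-Contra held 0.345, 0.378 and 0.122 CPM and LPC-Contra 0.417, 0.525 and 0.389 CPM. In counts, Sham-Ipsil had only 8, 4 and 1 and LNIO-Contra 6, 8 and 2, and these lows enter each comparison with those groups. All LNIO-Ipsil libraries lay above all sham and contralateral libraries, and 2 of the 3 LPC-Ipsil libraries did. The log2 fold change over Sham-Ipsil was 2.75 ± 0.80 in LNIO-Ipsil (edgeR adjusted p = 0.272) and 2.58 ± 0.80 in LPC-Ipsil (adjusted p = 0.0766). DESeq2 called the LPC difference (2.58, adjusted p = 0.0284), and edgeR called it without LPC-Ipsil replicate 3 (3.04 ± 0.72, adjusted p = 0.0147). Without LPC-Ipsil replicate 1 the LPC value was 1.48.

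Between sides, H2-DMb1 was 8.22, 4.70 and 6.10 times as high in LNIO-Ipsil as in LNIO-Contra in the same-numbered pairs. The log2 side difference was 2.60 ± 0.78 with all 15 libraries (edgeR adjusted p = 0.363) and 2.60 ± 0.43 with the sides paired in the 6 LNIO libraries, where it passed (adjusted p = 0.0014). In LPC it was 1.82 ± 0.74 (edgeR adjusted p = 0.315), beside 0.72 without LPC-Ipsil replicate 1 and 2.28 ± 0.68 without LPC-Ipsil replicate 3 (adjusted p = 0.0739 in the last). H2-DMb1 has a near copy, H2-DMb2, and how reads that match both were counted is not stated, so the split between them is uncertain.

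H2-DMa, the partner chain, was called in no comparison. It held 13.4, 11.2 and 7.68 CPM in LNIO-Ipsil, 23.5, 12.3 and 7.55 CPM in LPC-Ipsil and 11.4, 12.1 and 12.1 CPM in Sham-Ipsil. The groups overlapped in every comparison, with log2 fold changes over Sham-Ipsil of -0.14 ± 0.35 in LNIO-Ipsil and 0.28 ± 0.35 in LPC-Ipsil (edgeR adjusted p = 0.947 and 0.713). The LPC value was -0.25 without LPC-Ipsil replicate 1 and 0.59 ± 0.31 without LPC-Ipsil replicate 3 (edgeR adjusted p = 0.282 in the last), and the LNIO value was 0.06 without LNIO-Ipsil replicate 3. Between LPC sides it stood at 0.33 ± 0.35, and at 0.64 ± 0.31 without LPC-Ipsil replicate 3 (edgeR adjusted p = 0.799 and 0.369). H2-DMa overlaps Brd2 on the opposite strand in the mouse GENCODE annotation. The strand setting of the counting was not stated in the sources used here, and Brd2 held 151 to 217 CPM, so reads of the pair may not be told apart. As a ratio of FPKM, H2-DMb1 over H2-DMa was 0.434, 0.327 and 0.199 in LNIO-Ipsil and 0.29, 0.181 and 0.0985 in LPC-Ipsil. It was 0.0331 to 0.0778 in LNIO-Contra, 0.0744 to 0.0932 in LPC-Contra and 0.00851 to 0.0859 in Sham-Ipsil. All 6 libraries of the injection sites lay above all 9 others on this ratio, LPC-Ipsil replicate 3 by a small margin. LPC-Ipsil replicate 3 and LPC-Contra replicate 3 each had 6 counts of H2-DMb1. The lowest ratio, 0.00851 in Sham-Ipsil replicate 3, rests on 1 count of H2-DMb1. How often other pairs of genes part the libraries in this way was not counted, and the uncertainty over Brd2 reads enters the ratio.

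Ciita, the transactivator, was called in no comparison. It held 2.17, 3.17 and 4.76 CPM in LNIO-Ipsil, 2.53, 2.13 and 2.60 CPM in LPC-Ipsil, and 4.78, 2.57 and 3.62 CPM in Sham-Ipsil. LNIO-Contra held 1.55, 2.93 and 1.52 CPM and LPC-Contra 4.38, 0.992 and 2.92 CPM. The log2 fold change over Sham-Ipsil was -0.12 ± 0.44 in LNIO-Ipsil and -0.60 ± 0.45 in LPC-Ipsil (edgeR adjusted p = 0.968 and 0.501). Its sign in LNIO-Ipsil turned without LNIO-Ipsil replicate 1 (0.12) or Sham-Ipsil replicate 1 (0.13). The LNIO side difference was 0.74 ± 0.45 (edgeR adjusted p = 0.977) and the LPC one -0.20 ± 0.45 (adjusted p = 0.925), and that LPC value was 0.32 without LPC-Contra replicate 1. The LPC values without LPC-Ipsil replicate 3 were -0.65 ± 0.52 over Sham-Ipsil and -0.25 ± 0.52 between sides (edgeR adjusted p = 0.507 and 0.927). Dexi lies on the opposite strand within the annotated span of Ciita and held 21.8 to 36.5 CPM, so the Ciita count has the same uncertainty over strand.

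Over the 7 genes together, none was called in any of the 9 comparisons by edgeR with all 15 libraries. For LNIO-Ipsil over Sham-Ipsil 0 of 7 was called against 0% of all genes tested, 3 of 7 were higher at an unadjusted p under 0.05 (H2-Aa, H2-DMb1 and Cd74) against 5.77% of all genes, and in 2 of 7 (H2-Aa and H2-DMb1) the libraries of LNIO-Ipsil all exceeded those of Sham-Ipsil, against 10%. DESeq2 called 0 of 7 there. For LPC-Ipsil over Sham-Ipsil 0 of 7 was called by edgeR against 5.19% of all genes, 3 of 7 were higher at an unadjusted p under 0.05 (H2-Ab1, H2-DMb1 and Cd74) against 12.8%, and 1 of 7 (H2-Ab1) did not overlap, against 14%. DESeq2 called 2 of 7 there (H2-DMb1 and Cd74), against 9% of all genes, and edgeR without LPC-Ipsil replicate 3 called the same 2 of 7, against 9.62%. The median log2 fold change of the 7 was 1.23 in LNIO-Ipsil, beside -0.02 over all genes, and 0.75 in LPC-Ipsil, beside 0.01. Single libraries moved both medians by over 1.5 times. The LNIO median was 0.39 without LNIO-Ipsil replicate 2. The LPC median was 0.17 without LPC-Ipsil replicate 1, 1.15 without LPC-Ipsil replicate 3 and 1.56 without Sham-Ipsil replicate 2.

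Between sides, all 7 genes had a positive log2 value in LNIO and 6 of 7 in LPC, where 46.1% and 51% of all genes did. Medians were 1.13 in LNIO and 1.30 in LPC, beside -0.02 and 0.01 over all genes. The LPC median was 0.72 without LPC-Ipsil replicate 1 and 1.71 without LPC-Ipsil replicate 3, and the LNIO one was 0.87 without LNIO-Ipsil replicate 2. For LNIO-Ipsil over LNIO-Contra 0 of 7 was called with all 15 libraries (0% of all genes), 3 of 7 were higher at an unadjusted p under 0.05 (H2-Aa, H2-DMb1 and Cd74) against 4.83%, and 2 of 7 (H2-Aa and H2-DMb1) did not overlap, against 7.9%. With LNIO sides paired, 3 of the 6 genes that could be tested there were called, all higher, against 4.22% of all genes. Those were H2-Aa, H2-DMb1 and Cd74, and H2-Eb1 was too low to be tested in these 6 libraries. For LPC-Ipsil over LPC-Contra 0 of 7 was called (0% of all genes), 3 of 7 were higher at an unadjusted p under 0.05 (the same 3 genes) against 8.53%, and 1 of 7 (H2-Ab1) did not overlap, against 7.05%. Without LPC-Ipsil replicate 3 the LPC comparison of sides called 1 of 7 (H2-Aa), against 5.55%. The comparisons with Sham-Ipsil share the sham libraries, and those between sides share the injection sites with them, so these counts are not independent of one another.

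**Figure D2:**
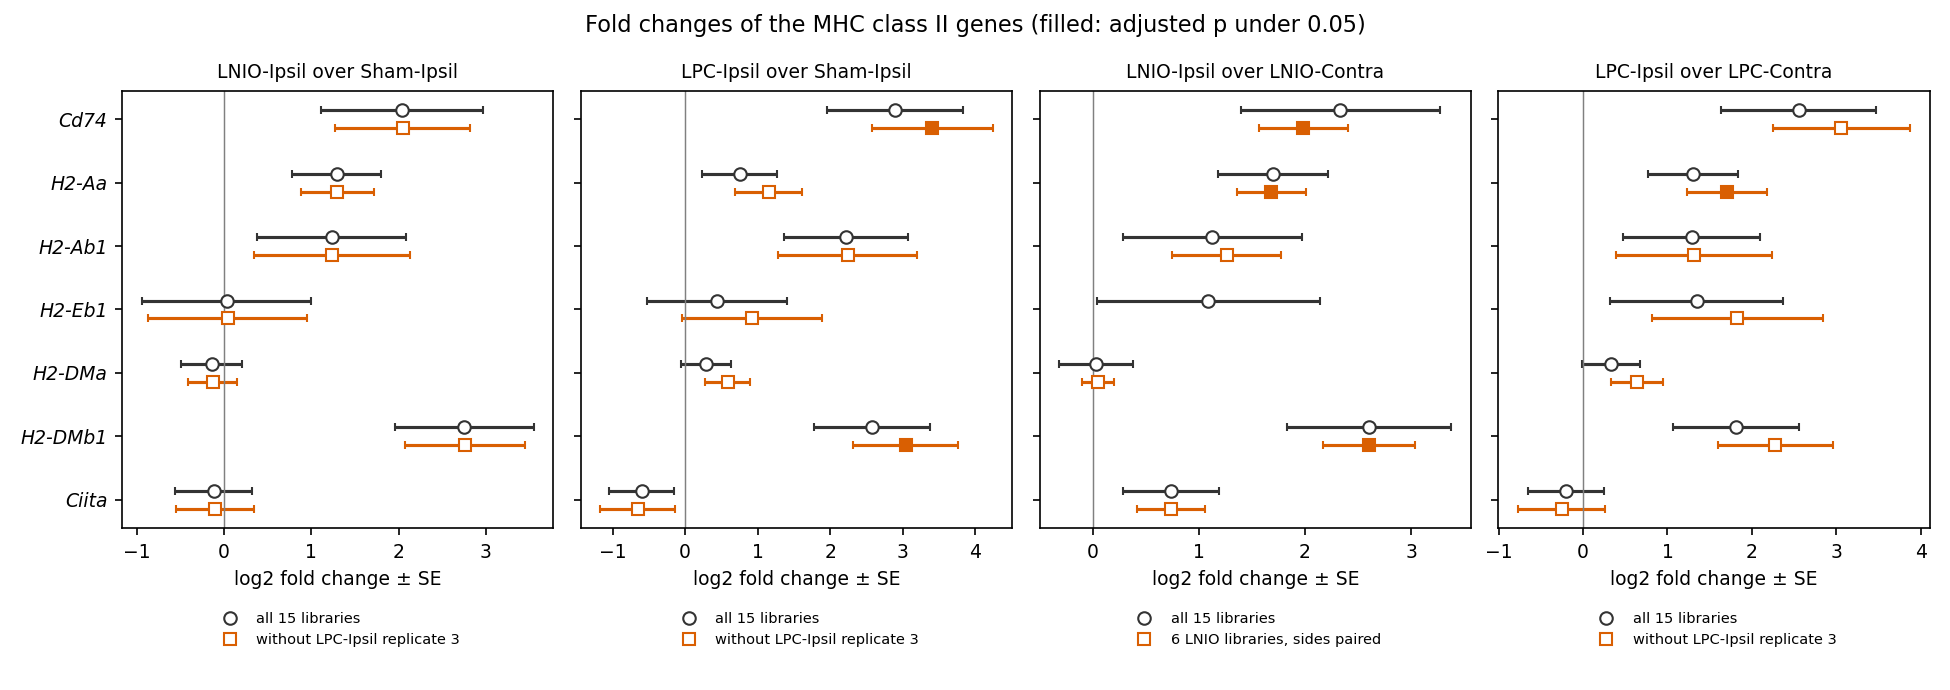
Log2 fold change with its standard error (horizontal) of the 7 genes (rows) in 4 comparisons, from all 15 libraries (circles) and from the setting named under each panel (squares), filled where the adjusted p was under 0.05. Filled points are Cd74 and H2-DMb1 over sham in LPC without LPC-Ipsil replicate 3, and H2-Aa between LPC sides without it. Cd74, H2-Aa and H2-DMb1 are also filled between LNIO sides paired by number, a pairing that the labels do not state.

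Set against each other, the injection sites gave no difference that passed the test at any of the 7 genes, with or without LPC-Ipsil replicate 3. For LNIO-Ipsil over LPC-Ipsil 0 of 7 was called (0% of all genes), 0 of 7 had an unadjusted p under 0.05, where 1409 genes did, and DESeq2 called 0 of 7. H2-Ab1 had the largest log2 value, -0.98 ± 0.80, with means of 3.91 CPM in LNIO-Ipsil and 7.72 CPM in LPC-Ipsil (edgeR adjusted p = 0.755). Cd74 stood at -0.86 ± 0.85 and H2-Aa at 0.54 ± 0.49 (edgeR adjusted p = 0.808 and 0.78). Leaving out LPC-Ipsil replicate 3, 0 of 7 was called against 1.41% of all genes, and 1 of 7 had an unadjusted p under 0.05, H2-DMa at -0.72 ± 0.31 (edgeR adjusted p = 0.319). Leaving out LNIO-Ipsil replicate 2, 1 of 7 had one too, Cd74 at -2.33 ± 0.85 (edgeR adjusted p = 0.307). The side difference in LNIO minus that in LPC was called for 0 of 7 (0% of all genes), 0 of 7 had an unadjusted p under 0.05, where 171 genes did, and DESeq2 called 0 of 7. The SE of that difference reached 1.49 for H2-Eb1 and was 1.29 for Cd74.

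On the contralateral sides no member passed either. For LNIO-Contra over Sham-Ipsil 0 of 7 was called (0% of all genes), 0 of 7 had an unadjusted p under 0.05, where 457 genes did, and the median log2 value was -0.29. For LPC-Contra over Sham-Ipsil 0 of 7 was called (0.00595% of all genes), 0 of 7 had an unadjusted p under 0.05, where 1624 genes did, and the median was -0.05. For LNIO-Contra over LPC-Contra 0 of 7 was called (0% of all genes), 0 of 7 had an unadjusted p under 0.05, where 576 genes did, and the median was -0.46. DESeq2 called 0 of 7 in each. H2-DMb1 was the gene at which the contralateral sides did not overlap, at 0.122 to 0.378 CPM in LNIO-Contra and 0.389 to 0.525 CPM in LPC-Contra. Its log2 difference was -0.62 ± 0.85 (edgeR adjusted p = 0.9995). The counts were only 6, 8 and 2 in LNIO-Contra and 8, 9 and 6 in LPC-Contra. The share of all genes that did not overlap in this comparison was not counted.

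H2-Ab1 varied most between libraries. Its range over the 15 libraries was 5.81 on the log2 scale, beside 3.05 for H2-Aa. As a ratio of FPKM, H2-Ab1 over H2-Aa was 1.13, 2.57 and 1.83 in LNIO-Ipsil and 4.27, 4.96 and 16.5 in LPC-Ipsil. It was 0.114, 3.60 and 5.30 in LNIO-Contra, 6.66, 5.71 and 6.06 in LPC-Contra, and 3.33, 0.311 and 3.02 in Sham-Ipsil. Replicate 1 of both LNIO groups and Sham-Ipsil replicate 2 were the 3 lowest libraries. Those same 3 libraries were the lowest of all 15 for H2-D1, an MHC class I heavy chain gene of the same chromosomal complex, chosen here after its values were seen. H2-D1 held 17.3 to 35.5 CPM in these 3 libraries and 47.7 to 298.8 CPM in the other 12. Of all genes tested, H2-D1 was the one whose centred log2 profile was nearest to that of H2-Ab1, with a root mean square difference of 0.67 over 15 libraries. Groups compared by H2-Ab1 contain such libraries unequally, namely 1 in LNIO-Ipsil, 0 in LPC-Ipsil, 1 in LNIO-Contra, 0 in LPC-Contra and 1 in Sham-Ipsil, and their part in the result was not tested.

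H2-Ea, which encodes the alpha chain that pairs with H2-Eb1, was too low to test. It had 15 counts in LNIO-Ipsil replicate 1, 4 in LPC-Ipsil replicate 1, 8 in Sham-Ipsil replicate 2 and at most 2 in the other 12 libraries, 9 of which had none. The 3 libraries with more than 2 counts of H2-Ea were also the 3 with most H2-Eb1, at 32, 37 and 23 counts. Alleles of H2-Ea that make no transcript are known in some inbred mouse strains, the strain is unknown, and whether the libraries differ in genotype was not tested.

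**Figure D3:**
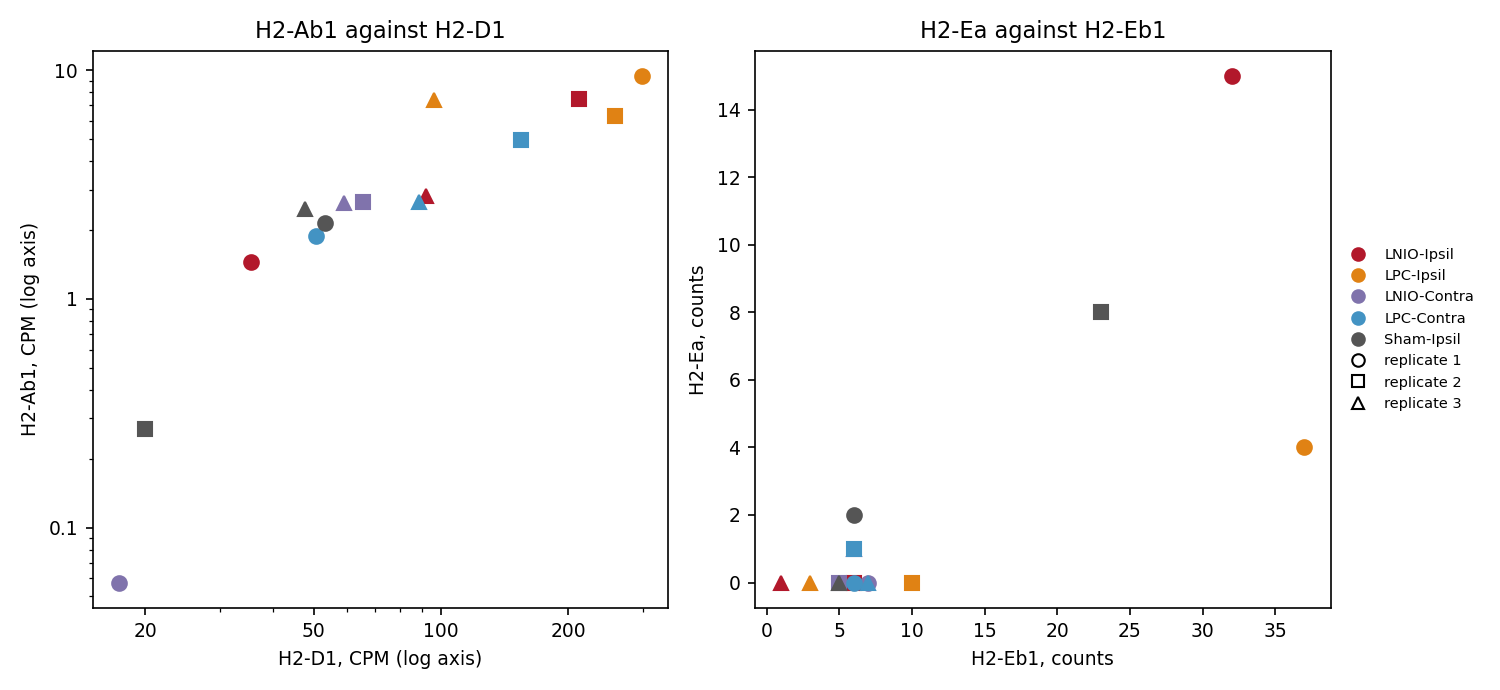
Each point is 1 of the 15 libraries, coloured by group with replicate number as marker shape. Left, CPM of H2-Ab1 against H2-D1 on log axes, where LNIO-Contra replicate 1 and Sham-Ipsil replicate 2 lie at the low end of both. Right, counts of H2-Ea against H2-Eb1, where LNIO-Ipsil replicate 1, Sham-Ipsil replicate 2 and LPC-Ipsil replicate 1 stand away from the others.

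Other genes of class II presentation were taken as lists. H2-Oa and H2-Ob encode H2-O, which restrains H2-DM, and H2-DMb2 is the near copy of H2-DMb1. In LPC-Ipsil over Sham-Ipsil 1 of the 3 tested rose, H2-Ob, with means of 4.86 ± 3.17 CPM in LPC-Ipsil and 0.578 ± 0.187 CPM in Sham-Ipsil (log2 3.05 ± 0.71, edgeR adjusted p = 0.028). H2-Oa stood at 2.80 ± 0.84 and H2-DMb2 at 2.38 ± 0.80 (edgeR adjusted p = 0.0677 and 0.106). In LNIO-Ipsil none of the 3 passed, with log2 values of 2.2 ± 0.71 for H2-Ob, 2.12 ± 0.87 for H2-Oa and 1.46 ± 0.80 for H2-DMb2 (smallest edgeR adjusted p = 0.316). H2-Ea and H2-Eb2 were too low to test.

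The proteases that cut invariant chain and antigen formed the list with most calls among the presentation genes. In LPC-Ipsil over Sham-Ipsil 7 of 8 rose, beside the 5.19% of all genes, with a median log2 value of 2.17. Cathepsin S, which makes the last cut of the invariant chain in many presenting cells, is encoded by Ctss. It averaged 298 ± 49.6 CPM in LNIO-Ipsil, 538 ± 428 CPM in LPC-Ipsil and 88.8 ± 40.1 CPM in Sham-Ipsil. Its log2 fold change was 1.75 ± 0.58 in LNIO-Ipsil (edgeR adjusted p = 0.34) and 2.60 ± 0.59 in LPC-Ipsil (adjusted p = 0.0283). Ifi30, the thiol reductase that opens disulfide bonds of antigens, stood at 1.81 ± 0.53 in LNIO-Ipsil (edgeR adjusted p = 0.28) and rose by 2.51 ± 0.54 in LPC-Ipsil (adjusted p = 0.0243). Ctsl and Ctsd, both lysosomal cathepsins, rose by 1.17 ± 0.26 and 3.71 ± 0.80 in LPC-Ipsil (edgeR adjusted p = 0.0255 and 0.0258). Sppl2a, the membrane protease that removes the last stub of the invariant chain, had 0.06 ± 0.16 in LPC-Ipsil (edgeR adjusted p = 0.889). In LNIO-Ipsil 0 of 8 passed, with Ctsd at 2.51 ± 0.76 and Ctsz at 2.13 ± 0.67 (edgeR adjusted p = 0.297 and 0.309).

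The factors on which Ciita assembles gave no call with all libraries. In LPC-Ipsil over Sham-Ipsil 0 of 7 genes of the RFX, NF-Y and CREB group passed, with a median log2 value of -0.04, and in LNIO-Ipsil 0 of 7 passed. Nfya was at 0.63 ± 0.21 and Nfyb at -0.30 ± 0.12 in LPC-Ipsil (edgeR adjusted p = 0.108 and 0.157). Nfya alone of the 7 rose without LPC-Ipsil replicate 3, by 0.84 ± 0.20 (edgeR adjusted p = 0.0135). Of the interferon gamma route to Ciita, 3 of 8 tested rose in LPC-Ipsil, Irf8 and Ifngr1 among them. Irf8, a factor of myeloid cells that microglia express, rose by 3.29 ± 0.61, and the receptor chain Ifngr1 by 1.01 ± 0.23 (edgeR adjusted p = 0.0243 and 0.0255). In LNIO-Ipsil 0 of 8 passed, with Irf8 at 2.26 ± 0.59 (edgeR adjusted p = 0.263). Ifng itself had 0 counts in all 15 libraries, which allows up to 3 counts in each, a limit that covers counting error only.

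Of costimulation, 2 of 6 tested genes rose in LPC-Ipsil. Cd86, a ligand of CD28, averaged 9.47 ± 1.76 CPM in LNIO-Ipsil, 13.5 ± 9.09 CPM in LPC-Ipsil and 2.12 ± 0.40 CPM in Sham-Ipsil. Its log2 fold change was 2.16 ± 0.49 in LNIO-Ipsil (edgeR adjusted p = 0.263) and 2.67 ± 0.49 in LPC-Ipsil (adjusted p = 0.0243). Cd274, the inhibitory ligand PD-L1, rose by 1.47 ± 0.33 in LPC-Ipsil (edgeR adjusted p = 0.0258). Of class II turnover 0 of 4 passed in either injury, with Cd83, which keeps class II at the surface, at 1.80 ± 0.51 in LPC-Ipsil (edgeR adjusted p = 0.057). Without LPC-Ipsil replicate 1, without its replicate 2 or without any 1 of the sham libraries, 0 genes of the processing, interferon gamma, costimulation and other class II lists passed, and 0 of the microglial markers. Over the omissions of 1 library, calls over all genes ran from 0 to 1646. The share of all genes called in those settings is not set beside these counts of 0, so they cannot be read as particular to the lists. Without LPC-Ipsil replicate 3 the processing, interferon gamma, costimulation and other class II lists counted 7 of 8, 5 of 8, 3 of 6 and 3 of 3, and turnover 1 of 4 (Cd83), where 9.62% of all genes were called. The calls added in that setting were Ifngr2, Irf1, Icosl, H2-Oa and H2-DMb2 in those 4 lists.

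**Figure D4:**
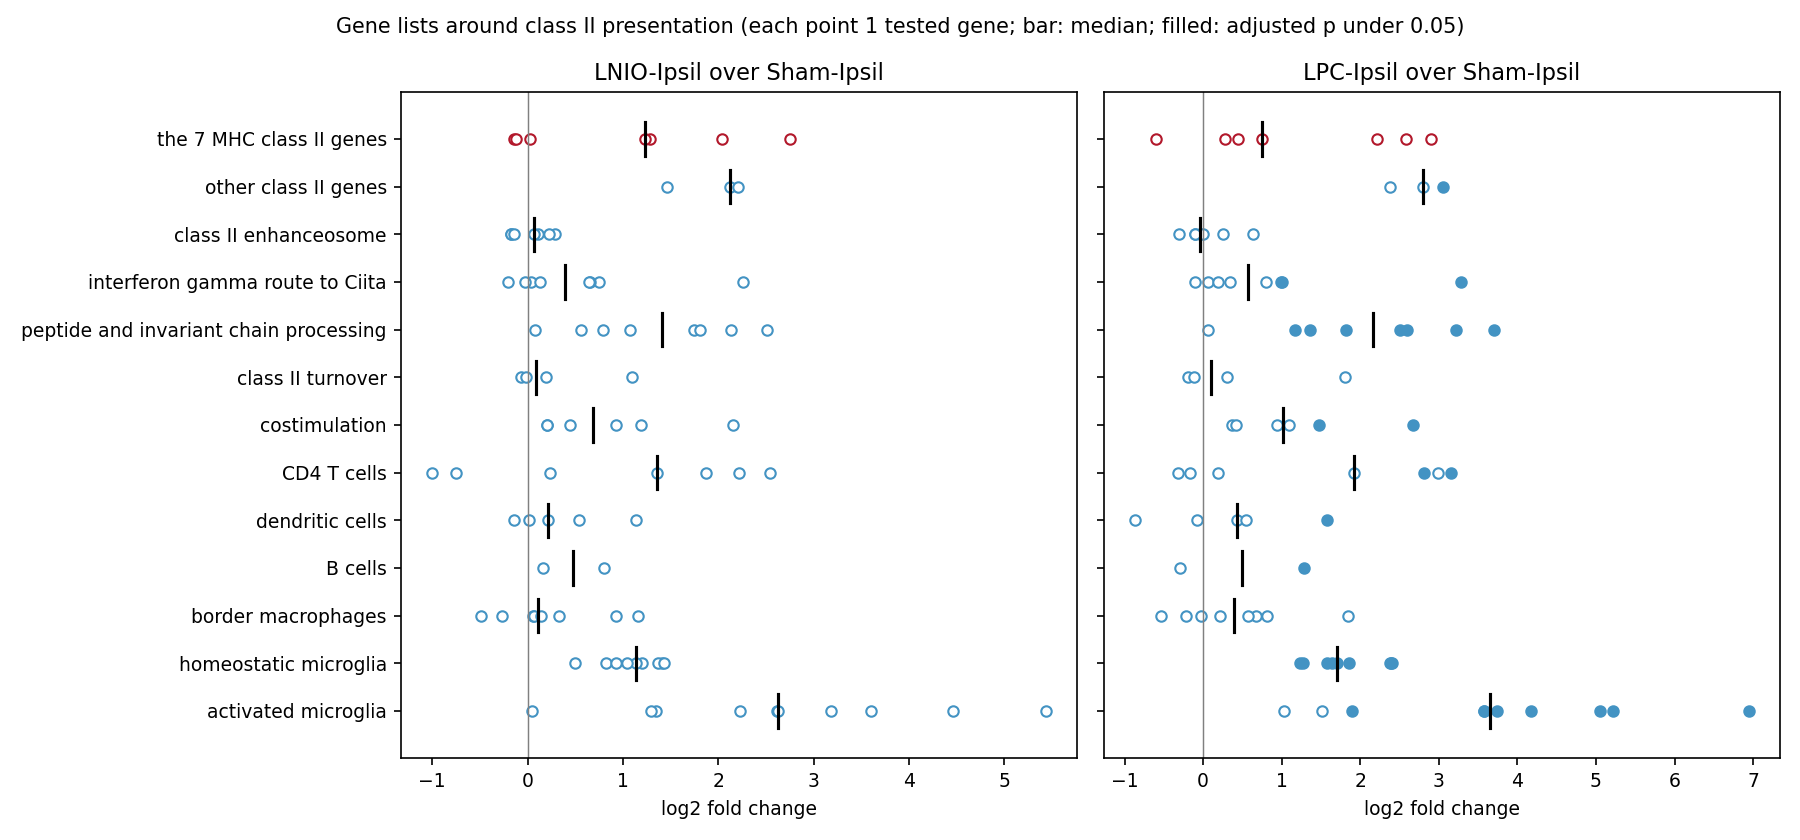
Log2 fold change (horizontal) of each tested gene in lists of class II presentation and of cell types (rows), for LNIO-Ipsil over Sham-Ipsil (left) and LPC-Ipsil over Sham-Ipsil (right), with bars at list medians and filled points where the adjusted p was under 0.05. No point on the left is filled, where 0% of all genes tested passed. On the right 7 of 8 processing genes and 9 of 9 homeostatic microglial genes are, beside 5.19% of all genes.

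Markers of the cells that could carry class II moved unequally. In LPC-Ipsil over Sham-Ipsil, where 5.19% of all genes were called, 9 of 9 homeostatic and 8 of 10 activated microglial markers rose. Activated markers summed to 1772 to 3473 CPM in LNIO-Ipsil, 1061 to 5396 CPM in LPC-Ipsil and 984 to 1006 CPM in Sham-Ipsil. Of border macrophage markers 0 of 8 passed, with sums of 10.7 to 14.5 CPM in LNIO-Ipsil, 10.3 to 20.3 CPM in LPC-Ipsil and 7.05 to 20.2 CPM in Sham-Ipsil. Of monocyte markers 0 of 4 tested passed, with sums of 69.2 to 84.5 CPM in LNIO-Ipsil, 74.5 to 76.8 CPM in LPC-Ipsil and 57.2 to 97.9 CPM in Sham-Ipsil. Of dendritic cell markers 1 of 5 tested rose, Siglech, which microglia share, and the sums were 70.1 to 78.7 CPM in LNIO-Ipsil, 59.9 to 113 CPM in LPC-Ipsil and 48.1 to 51.6 CPM in Sham-Ipsil. The defining Xcr1 was at 0 in 13 of the 15 libraries, and Clec9a reached 8 counts. Zbtb46 and Flt3 of the same list were counted in every library, at 6.39 to 11.7 CPM and 3.73 to 12.5 CPM. Of B cell markers 1 of 2 tested rose, Blnk, which microglia also express, with sums of 19.5 to 25.1 CPM in LNIO-Ipsil, 13.5 to 44.8 CPM in LPC-Ipsil and up to 14.1 CPM in Sham-Ipsil. The defining Ms4a1 was at 0 in 8 of the 15 libraries and never above 6 counts. Without LPC-Ipsil replicate 3, where 9.62% of all genes were called, 9 of 9 homeostatic and 10 of 10 activated markers rose, and of border macrophage markers 1 of 8 (Ms4a7), of monocyte markers 0 of 4, of dendritic cell markers 1 of 5 (Siglech) and of B cell markers 2 of 3 (Blnk and Cd79b). Flt3, a dendritic cell marker, fell by 1.25 ± 0.30 there (edgeR adjusted p = 0.0159). LPC-Ipsil replicate 3 was singled out by its low homeostatic marker sum, so the microglial calls without it partly follow from that choice.

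CD4 T cells are the readers of class II. Their defining Cd3e had at most 3 counts and was at 0 in 10 of 15 libraries. Of the T cell list 2 of 7 tested rose in LPC-Ipsil, Lag3, a receptor for class II that microglia also express, and Icos, joined by Cd5 without LPC-Ipsil replicate 3. The list summed to 22.4 to 60.8 CPM in LNIO-Ipsil, 28.4 to 85.8 CPM in LPC-Ipsil and 9.44 to 39.2 CPM in Sham-Ipsil, and most of it was Cd4 and Lag3. In LNIO-Ipsil over Sham-Ipsil 0 genes of every list passed, where 0% of all genes tested did, so this is not particular to the lists. Within LPC-Ipsil, Cd74 and H2-DMb1 were highest in replicate 1, which had most microglial marker RNA. Within LNIO-Ipsil, Cd74 was highest in replicate 2, which had most of it. Cd74 was lowest in replicate 3 (2.08 CPM), though homeostatic marker RNA there was near that of replicate 2. H2-DMb1 was in LNIO-Ipsil highest in replicate 1, which had the least homeostatic marker RNA (648 CPM, beside 912 and 897 CPM in replicates 2 and 3). Activated markers summed to 2588, 3473 and 1772 CPM in replicates 1, 2 and 3 of LNIO-Ipsil. The part of microglial number in these values was not tested.

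By likeness to the mean profile of the 7 genes over 15 libraries, the nearest tested genes were Serpinf1, Tlr6, Glipr2, Lhfpl2, Vav2 and Grap. Their root mean square differences in centred log2 CPM ran from 0.24 to 0.29. The 7 genes themselves lay farther from that mean, from 0.48 for H2-Aa to 1.22 for H2-Ab1, with Ciita at 0.87.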

How the data were processed

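RNA was extracted with TRIzol, depleted of ribosomal RNA, poly(A)-purified and sequenced in pairs on a NovaSeq instrument, per the labels' protocols. The submitters' processing notes name HISAT2 2.2.1, R 4.4.2 and GRCm39. Which program counted reads, with which strand setting and annotation, was not given in the sources used here. The authors deposited whole-number read counts per gene symbol (library totals 14896445 to 20916606) and FPKM for the same genes. Each of the 15 columns in both tables names its group and number.

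The main test was the robust quasi-likelihood test of edgeR 4.0.16 (R 4.3.3) with TMM scaling (factors 0.966 to 1.06), filterByExpr by group (minimum count 10, minimum total 15) and 1 mean per group over all 15 libraries. The Benjamini-Hochberg adjustment ran over all 16795 genes tested, and genes were called at an adjusted p under 0.05. SE was taken from the log2 fold change and its F statistic. CPM uses library totals times TMM factors, and FPKM was used only to compare genes with each other. The pipeline was tested on simulated data. Other settings were DESeq2 1.42.0, its size factors in edgeR, no filter, limma 3.58.1 on log2(FPKM + 0.1) or log2(FPKM + 1), only the groups compared, a replicate block and leaving out each library.

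The 7 genes and the lists (16 lists, 120 genes) were chosen with earlier results of these data known. Besides the 7, each pathway list gives up to 3 tested genes with the smallest unadjusted p in LPC-Ipsil and up to 3 in LNIO-Ipsil over Sham-Ipsil, and the 6 genes nearest in profile are named. Some genes of the lists are not reported here by name. Deviations from group means of same-numbered libraries correlated at 0.249 to 0.599 between LNIO-Ipsil and LNIO-Contra, over 0.1 in every pair, and in no other pair of groups was every correlation over 0.1. The replicate block of the 6 LNIO libraries alone was added after seeing the data. No 2 libraries of a group looked like 1 library deposited again (chi-square per degree of freedom 10.1 to 63.7).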

Additional observations from a re-analysis of the deposited data

How the results depend on the processing

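Calls that settings other than the first gave to any of the 7 genes were all in the direction found with all 15 libraries. DESeq2's factors in edgeR moved no count by over 1.5 times. The number of the 7 genes called for LPC-Ipsil over Sham-Ipsil, 0 at first, was 2 by DESeq2, 1 with a replicate block (H2-DMb1) and 0 to 2 over the 15 omissions of 1 library. For LPC-Ipsil over LPC-Contra it was 0 to 1 over the omissions. For LNIO-Ipsil over LNIO-Contra it was 1 with only the groups compared (H2-DMb1) and 3 with the replicate block in the LNIO libraries alone, which was chosen after seeing the data. The same-numbered LNIO sides correlated, but the labels state no pairing of libraries, in LNIO or elsewhere. Models of only the groups compared could not test every one of the 7 genes, since fewer passed the filter.

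Over all genes, the 871 calls for LPC-Ipsil over Sham-Ipsil became 524 without a filter, 1512 by DESeq2, 51 by limma on log2(FPKM + 0.1), 3 with log2(FPKM + 1) and 3 with no filter, 0 with only the groups compared, and 0 to 1646 over the omissions. For LNIO-Ipsil over Sham-Ipsil the 0 calls became 1 without a filter, 237 by DESeq2, 1, 1 and 4 in the same limma settings, 1 with the replicate block, 378 with only the groups compared, and 0 to 398 over the omissions. For LNIO-Ipsil over LPC-Ipsil they became 1 without a filter, 18 by DESeq2, 2 in each limma setting and 0 to 241 over the omissions. For LPC-Ipsil over LPC-Contra they became 700 by DESeq2, 2 by limma with no filter and 0 to 950 over the omissions. For LNIO-Ipsil over LNIO-Contra they became 180 by DESeq2, 1 by limma with no filter, 359 with only the groups compared, 684 with the replicate block in the LNIO libraries alone and 0 to 380 over the omissions. For LPC-Contra over Sham-Ipsil the single call became 28 by DESeq2, 2 by limma with no filter, 0 with the replicate block or only the groups compared and 0 to 2 over the omissions. For LNIO-Contra over Sham-Ipsil the 0 calls became 1 without a filter, 2 by DESeq2, 1 by limma with either pseudocount, 1 with the replicate block and 3 with only the groups compared. For LNIO-Contra over LPC-Contra they became 1 without a filter, 8 by DESeq2, 1 in each limma setting, 1 with the replicate block and 0 to 2 over the omissions. The cause was not tested.

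Some log2 values that did not pass changed sign. H2-Eb1 for LNIO-Ipsil over Sham-Ipsil was -0.25 by limma on log2(FPKM + 0.1) with or without the filter, -0.0233 with log2(FPKM + 1) and -0.38 with the replicate block. H2-Ab1 for LNIO-Contra over Sham-Ipsil was -0.13 by limma on log2(FPKM + 0.1) with or without the filter and -0.17 with the replicate block. Over the omissions of 1 library, ranges that crossed 0 were as follows in each comparison. For LPC-Ipsil over Sham-Ipsil they were -1.05 to 1.56 for H2-Eb1 and -0.25 to 0.59 for H2-DMa. For LNIO-Ipsil over Sham-Ipsil they were -1.86 to 1.19 for H2-Eb1, -0.33 to 0.0597 for H2-DMa and -0.45 to 0.13 for Ciita. For LNIO-Ipsil over LPC-Ipsil they were -2.28 to 1.08 for H2-Eb1, -0.72 to 0.11 for H2-DMa, -0.30 to 1.26 for H2-DMb1 and -2.33 to 0.28 for Cd74. For LPC-Ipsil over LPC-Contra they were -0.14 to 1.83 for H2-Eb1, -0.20 to 0.64 for H2-DMa and -0.59 to 0.32 for Ciita. For LNIO-Ipsil over LNIO-Contra they were -0.81 to 1.67 for H2-Eb1 and -0.17 to 0.31 for H2-DMa. For LPC-Contra over Sham-Ipsil they were -1.35 to 0.25 for H2-Eb1, -0.25 to 0.13 for H2-DMa, -0.38 to 0.70 for Cd74 and -0.91 to 0.00196 for Ciita. For LNIO-Contra over Sham-Ipsil they were -0.37 to 0.66 for H2-Ab1, -1.49 to 0.12 for H2-Eb1, -0.44 to 0.0058 for H2-DMa and -0.40 to 0.91 for H2-DMb1. For LNIO-Contra over LPC-Contra they were -0.17 to 0.70 for H2-Aa, -0.31 to 0.0536 for H2-Eb1, -0.39 to 0.0723 for H2-DMa, -0.996 to 0.0915 for Cd74 and -0.86 to 0.0498 for Ciita. For the side difference in LNIO minus side difference in LPC they were -0.15 to 0.98 for H2-Aa, -1.01 to 0.27 for H2-Ab1, -2.12 to 1.23 for H2-Eb1, -0.59 to 0.24 for H2-DMa and -1.69 to 0.92 for Cd74.

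The lowest counts, 1 for H2-Ab1, for H2-Eb1 and for H2-DMb1 in single libraries, limit what can be said of those genes. Depth is not the only limit, since each group has 3 libraries.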

Other observations

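Genes outside the lists lay nearest to single members, all chosen after their values were seen and given as values only. The nearest to Cd74 was H2-K1, an MHC class I heavy chain gene, with a root mean square difference of 0.47 in centred log2 CPM over 15 libraries. H2-K1 held 29.6, 101 and 29.4 CPM in LNIO-Ipsil, 147, 77.9 and 17.8 CPM in LPC-Ipsil, 12.9, 14.9 and 11.2 CPM in LNIO-Contra, 17.2, 33.0 and 16.5 CPM in LPC-Contra, and 9.02, 14.9 and 8.55 CPM in Sham-Ipsil. Every LNIO-Ipsil and LPC-Ipsil library was above every sham library. B2m, the light chain of class I, was the second nearest to H2-DMb1 (0.50), after Tcim (0.36). It held 222, 210 and 194 CPM in LNIO-Ipsil, 554, 278 and 82.4 CPM in LPC-Ipsil, 71.2, 60.5 and 58.7 CPM in LNIO-Contra, 70.5, 125 and 90.8 CPM in LPC-Contra, and 81.6, 66.9 and 50.2 CPM in Sham-Ipsil.

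Rpsa-ps5, a pseudogene and the second nearest gene to H2-Ab1 (0.90), was also lowest in replicate 1 of both LNIO groups. It had 6 counts in LNIO-Ipsil replicate 1, 2 counts in LNIO-Contra replicate 1 and 13 in Sham-Ipsil replicate 2, beside 15 to 90 in the other 12 libraries.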
